A study of Mus musculus with 4 samples.

Results

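The circadian clock genes Per1, Per2, Per3, Dbp, Tef, Nr1d1, Nr1d2, Cry1, Clock and Nfil3, were followed across the 4 arrays. They were taken by gene symbol, and 24 of the 34945 probe sets that name a single gene belong to them, so that 10 of 18193 genes are described. Probe sets were taken by symbol and not by value, but the brightest of each gene over the 4 arrays then stood for it. No probe set of these genes named another gene as well. The array RNA came from C57BL/6 mice. In the NK318.1 group, germ-free (GF) mice had been colonized with 100000000 bacteria of the single strain Lactobacillus NK318.1, and tissue was taken 2 weeks later. The GF group carried no bacteria, and all mice lived in vinyl isolators. Intestinal epithelial cells (IEC) and Peyer's patches (PP), the lymphoid follicles of the small intestinal wall, were taken from each group, and 1 pooled RNA sample per tissue and group was hybridized to 1 array. The study's methods describe the mice of its experiments as matched in age and sex, without giving the sex of these pools or the hour of the day at which the mice were killed.

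The clock is a feedback loop that runs in nearly every cell. CLOCK or NPAS2 pairs with BMAL1 (gene Arntl) at E-box sequences and switches on the Per, Cry, Nr1d and Dbp genes. The PER and CRY proteins then return to block that pair, NR1D1 and NR1D2 (also called REV-ERB) repress Arntl, Npas2, Clock and Nfil3 through ROR elements, and DBP, TEF and HLF compete with the repressor NFIL3 at D-box sequences. In mouse tissues kept in a light and dark cycle, transcripts of Per, Dbp, Tef and Nr1d genes accumulate around the same part of the day, whereas Arntl, Npas2, Clock and Nfil3 accumulate at the opposite part, with Cry1 later than the Per genes. In the mouse gut the clock is known for setting a daily rhythm in nutrient uptake and in epithelial renewal, and Nfil3 has been studied in epithelial cells as a regulator of lipid uptake.

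The 3 kinds of regulatory element are visible in the promoters of some members. Windows of 300 bases, running from 250 before to 50 after a transcription start, were available for 9 members from RefSeq (GRCm38.p6). They were searched on both strands for the E-box CACGTG, its variant CACGTT, the D-box TTATGTAA, the ROR element core TAGGTCA and the cyclic AMP element TGACGTCA. No letters of these motifs overlapped in the windows shown. The promoters of Per1, Per3, Cry1 and Nfil3 are printed because they carry an E-box, a D-box or a ROR element and because their genes lay on either side of 0 in epithelial cells. Motif letters are in capitals, and all else is in lower case.
Per1, chr11:69098699-69098998, plus strand, with an E-box: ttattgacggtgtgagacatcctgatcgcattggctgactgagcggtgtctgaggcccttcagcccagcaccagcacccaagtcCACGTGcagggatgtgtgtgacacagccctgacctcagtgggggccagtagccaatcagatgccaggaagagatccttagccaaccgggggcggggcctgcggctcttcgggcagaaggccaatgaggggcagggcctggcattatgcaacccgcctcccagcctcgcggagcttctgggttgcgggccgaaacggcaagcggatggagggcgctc
Per3, chr4:151044616-151044915, minus strand, with a pair of D-boxes: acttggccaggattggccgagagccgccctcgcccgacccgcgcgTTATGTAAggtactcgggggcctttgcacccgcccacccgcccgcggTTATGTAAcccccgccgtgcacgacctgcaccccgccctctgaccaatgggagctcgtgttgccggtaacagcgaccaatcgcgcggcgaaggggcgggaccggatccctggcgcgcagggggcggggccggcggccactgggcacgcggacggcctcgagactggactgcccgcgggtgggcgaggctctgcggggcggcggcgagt
Cry1, chr10:85185005-85185304, minus strand, with the E-box and, on the opposite strand, CACGTT: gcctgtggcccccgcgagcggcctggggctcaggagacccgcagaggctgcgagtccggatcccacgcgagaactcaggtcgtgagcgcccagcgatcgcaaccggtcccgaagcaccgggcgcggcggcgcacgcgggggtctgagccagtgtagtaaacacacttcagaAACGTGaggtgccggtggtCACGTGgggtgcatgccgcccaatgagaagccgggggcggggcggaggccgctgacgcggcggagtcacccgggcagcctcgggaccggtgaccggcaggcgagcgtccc
Nfil3, chr13:52980990-52981289, minus strand, with the ROR element core on the opposite strand: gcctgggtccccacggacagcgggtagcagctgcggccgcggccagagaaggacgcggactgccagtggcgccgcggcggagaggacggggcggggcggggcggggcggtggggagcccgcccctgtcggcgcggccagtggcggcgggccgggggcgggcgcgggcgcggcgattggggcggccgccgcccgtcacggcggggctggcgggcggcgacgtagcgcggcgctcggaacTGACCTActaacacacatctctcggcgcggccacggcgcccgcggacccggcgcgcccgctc
The Per1 E-box began 166 bases and the Cry1 E-box 60 bases before the start. In Per3 the D-boxes began 205 and 158 bases before it, and in Nfil3 the ROR element core began 12 bases before it. Per1 has another start site, not printed, whose window held none of the motifs searched. The E-box occurred in 3 of 9 member promoters (Per1, Cry1 and Tef), against 8.09% of the 27025 genes with a window. CACGTT occurred in 2 (Cry1 and Nr1d1, 5.44% of all), the D-box in 1 (Per3, 1.11%), the ROR element core in 1 (Nfil3, 2.97%) and the cyclic AMP element in 0 (2.03%). A match describes these letters only, and elements outside the windows were not searched.

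The values are linear MAS5 signals, with a median over probe sets between 23.0 and 23.3 on the 4 arrays. Any signal below 15.5 was set to this floor before the log, and genes under it on both arrays of a tissue have no ratio there. Each difference is the log2 ratio of the colonized to the GF array. With 1 array per group there was no replicate check, no test and no p-value, and mice of a group could not be compared. In epithelial cells several other features moved between the same arrays. The 3′ to 5′ signal ratio of β-actin was 4.10 in colonized and 2.73 in GF epithelial cells, and 1.74 and 1.60 in the Peyer's patch. The leukocyte gene Ptprc had 23.1 in colonized and 271 in GF epithelial cells. The summed signal of 7 T cell and intraepithelial lymphocyte markers was 545 against 4349, and 6 of the 7 were at least 2-fold lower. That of 8 epithelial markers was 33272 against 39735. All 5 gastric markers were at least 2-fold higher (29883 against 304 summed), as were all 7 acinar markers measured (9684 against 1009). Xist, expressed from female cells, had 4889 and 46.7 in colonized and GF epithelial cells and 4586 and 21.7 in the Peyer's patch, and Y-linked Eif2s3y lay under the floor in both colonized arrays but had 147 and 300.1 in the GF arrays. Group and sex of the pools therefore cannot be told apart, and the part of cell makeup and RNA quality in the ratios of the clock genes was not tested. Nor was the part of the hour at which the mice were killed. That hour is not given, so whether it differed between the groups could not be checked. In bulk RNA, fewer cells of a type and less RNA per cell cannot be told apart.

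In epithelial cells, the members split by side. All of Per1, Per2, Per3, Dbp, Tef, Nr1d1 and Nr1d2 had a higher signal in colonized than in GF mice, with log2 ratios between 0.08 and 0.62. Cry1, Clock and Nfil3 had a lower signal, with ratios between −0.82 and −0.29. So 7 of 10 members lay above 0, against 52.4% of the 13874 genes measured there. No member was 2-fold apart, against 2.63% of all measured genes at least 2-fold higher and 1.54% at least 2-fold lower. At 1.5-fold, 1 member was higher (Per3; 9.31% of all) and 2 were lower (Clock and Nfil3; 6.80% of all). The median log2 ratio of the 10 was 0.22, and that of all measured genes 0.02. The median of the 7 higher members was 0.41 and that of the other 3 was −0.66, a division made after the values had been seen.

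**Figure D1:**
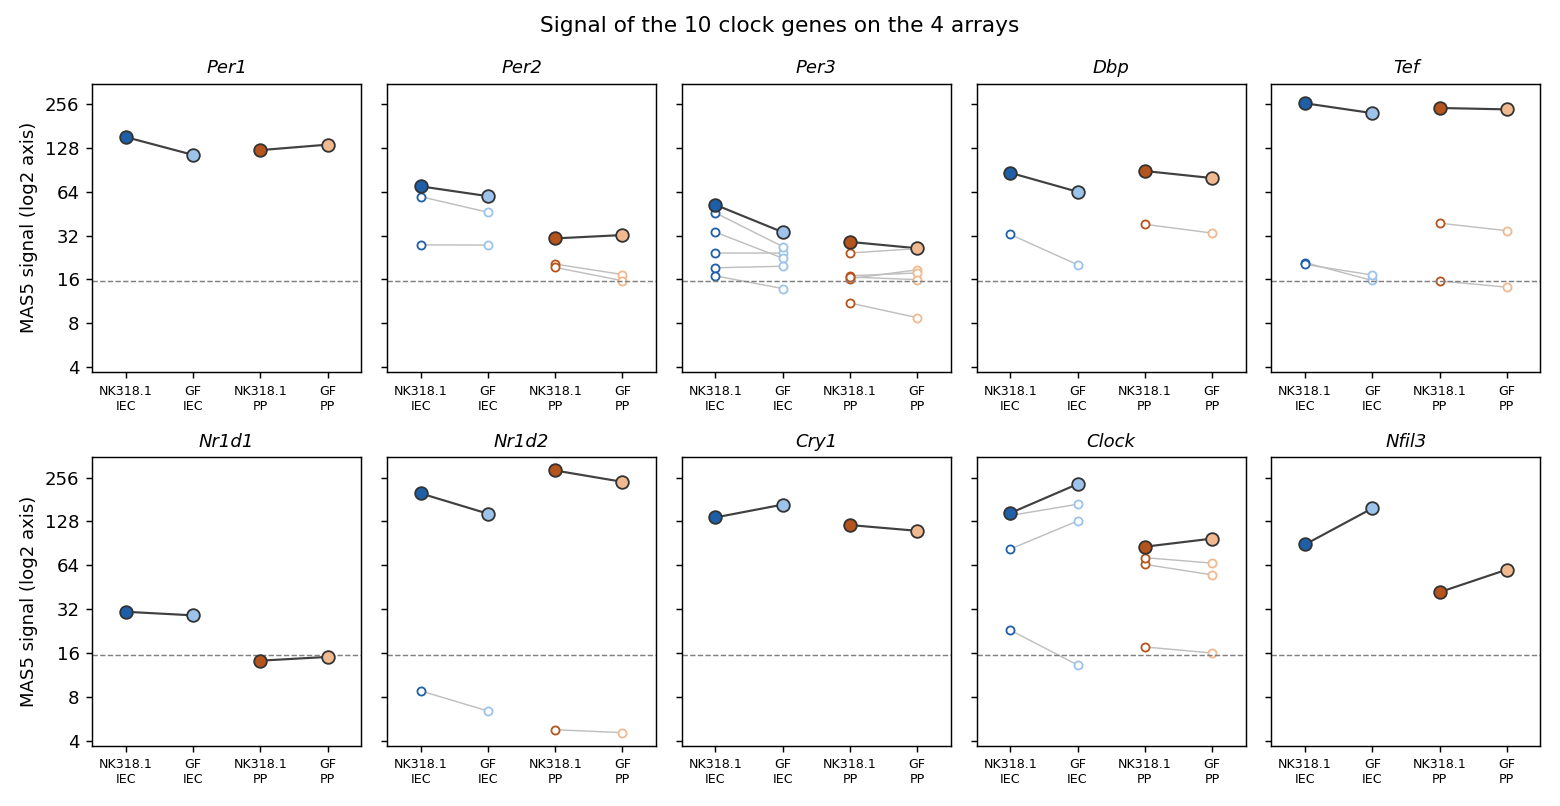
MAS5 signal (log2 axis) of the 10 clock genes on the NK318.1 and GF arrays of epithelial cells (IEC, blue) and Peyer's patch (PP, orange). Filled points, probe set with the highest mean signal; open points, other probe sets; dashed line, the floor of 15.5; 1 pooled array per point, so there are no error bars. In epithelial cells the filled points slope one way for Per1 to Nr1d2 and the other way for Cry1, Clock and Nfil3.

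The Per genes encode the repressors that close the loop. Per1, which light and hormones can induce within a short time, had a signal of 151 in colonized and 114 in GF epithelial cells, and 123 and 134 in the Peyer's patch (log2 ratios 0.41 and −0.12). The epithelial pair stood further apart than the lymphoid pair and in the other direction. Per2, whose loss shortens the daily period in mice, had 69.6 in colonized and 59.6 in GF epithelial cells (0.22) and 30.6 and 32.2 in the Peyer's patch (−0.08). Its other probe sets gave 0.36 and 0.00 in epithelial cells and 0.24 and 0.30 in the Peyer's patch, where no Per2 signal exceeded 32.2. Per3, a further Per paralog with a lesser role in the core loop, had 52.0 in colonized and 33.7 in GF epithelial cells. By the brightest probe sets this was the highest ratio among the members, at 0.62, and 8.24% of measured genes had one as high. Dbp was higher with the mean over probe sets (0.56 against 0.35) and without less specific probe sets (0.69 against 0.62). Per3 was under 1.5-fold with that mean and, at 0.48, with the floor at the 60th percentile. Of its 5 other probe sets in epithelial cells, those with 45.8 against 26.9 and 33.7 against 22.4 gave 0.77 and 0.59, and the remaining 3 gave −0.04 to 0.13. In the Peyer's patch Per3 had 28.9 and 26.2 (0.15), and its 4 other measured probe sets ran from −0.20 to 0.06.

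Cry1 encodes the strongest repressor of the CLOCK and BMAL1 pair. It had 136 in colonized and 167 in GF epithelial cells (−0.29), and 121 and 110.4 in the Peyer's patch (0.13). Its ratio thus ran against those of the Per genes in epithelial cells. Clock itself, the activator, had 146 in colonized and 231 in GF epithelial cells, a ratio of −0.66, and 4.98% of measured genes had one as low. Of its 3 other probe sets in epithelial cells, 2 pointed the same way (82.8 against 129, −0.64; 141 against 168, −0.26). The dimmest, with 23.0 in colonized and a signal under the floor in GF mice, gave 0.57. In the Peyer's patch Clock had 85.9 and 97.6 (−0.19), while its 3 other probe sets gave 0.12 to 0.24, so its direction there depended on the probe set.

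The nuclear receptors Nr1d1 and Nr1d2 are the repressors of the ROR element arm. Nr1d2 had 199 in colonized and 145 in GF epithelial cells (0.46), and 286 and 239 in the Peyer's patch (0.26), where it was the highest member. It was higher in the colonized array of both tissues. Nr1d1 had 30.8 and 29.1 in epithelial cells (0.08), and 14.2 and 15.1, both under the floor, in the Peyer's patch, where it has no ratio. The second Nr1d2 probe set lay under the floor on all 4 arrays.

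Dbp and Tef encode activators at D-boxes, and Nfil3 the repressor that binds there. Dbp had 86.1 in colonized and 63.9 in GF epithelial cells (0.43), and 88.6 and 79.3 in the Peyer's patch (0.16). The suffix of that probe set marks one that can match more than 1 transcript. The other Dbp probe set gave 0.69 (32.6 against 20.2) and 0.20 (38.2 against 33.3). Tef had 258 and 221 in epithelial cells (0.22) and 239.6 and 234 in the Peyer's patch (0.03), with 2 other probe sets between 0.24 and 0.41 in epithelial cells. Both activators thus had the higher signal in colonized epithelial cells by every probe set. Nfil3 had 89.1 in colonized and 158 in GF epithelial cells, and 41.9 and 59.9 in the Peyer's patch. Its ratios of −0.82 and −0.51 were the lowest of the members in each tissue, and 2.80% and 3.72% of measured genes had ratios as low. Nfil3 has a single probe set, so no other probe set bears on these values.

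**Figure D2:**
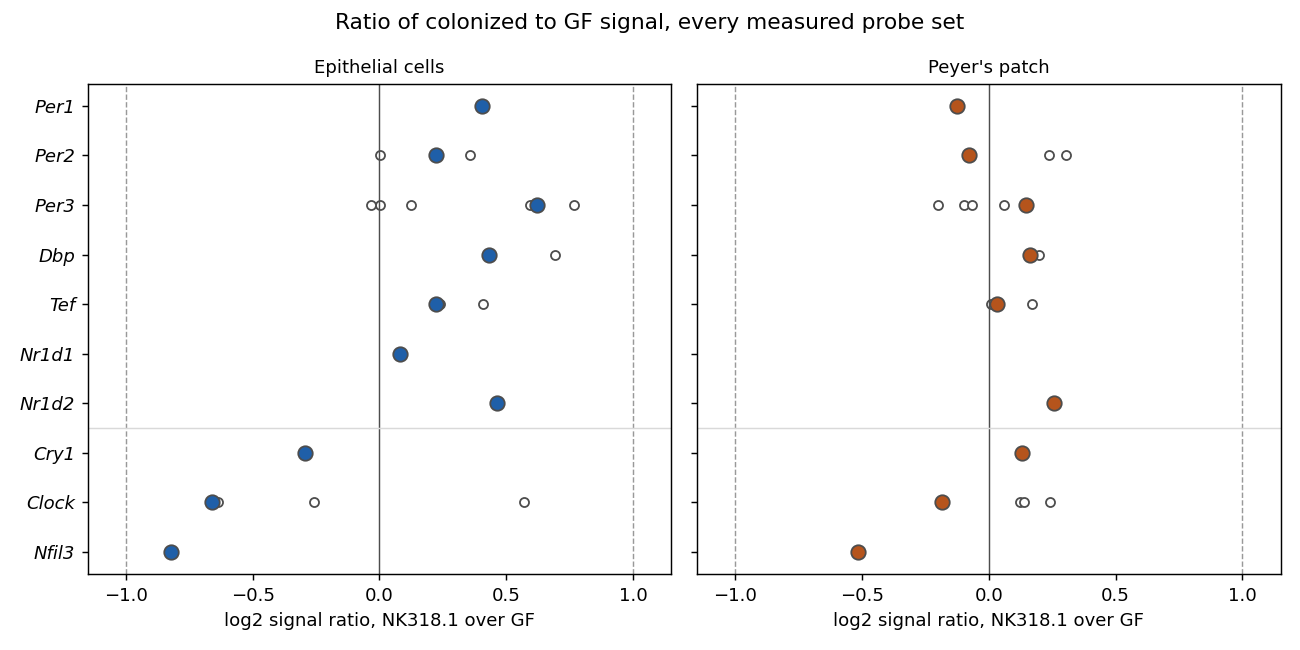
Log2 signal ratio, NK318.1 over GF, of every measured probe set of the 10 clock genes in epithelial cells (left) and Peyer's patch (right). Filled points, probe set with the highest mean signal; open points, others; dashed lines, 2-fold; grey line, division between the 7 members above 0 in epithelial cells and Cry1, Clock and Nfil3. The filled points set the division. Of the open points in epithelial cells, 9 of 10 of the 7 lay above 0, and 2 of the 3 of Clock lay below. Among the 9, a Per2 point at 0.003 and a Per3 point at 0.0007 lay nearly at 0.

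The division rests on the brightest probe set of each gene, so only the other probe sets could differ from it. Of those measured in epithelial cells, 9 of 10 for the 7 higher members lay above 0, against 50.9% of 10463 such probe sets of all genes. That share covers genes on either side of 0, whereas the 7 were picked as above 0 on these arrays. The share among genes whose brightest probe set lay above 0 was not computed. The 9 of 10 is therefore no independent check of the division. Among these 9, a Per3 probe set at 0.0007 and a Per2 probe set at 0.003 had nearly equal signals on both arrays. A further Per3 probe set, at 0.13, had a GF signal under the floor. Cry1 and Nfil3 have no other probe set, and of the 3 of Clock 2 lay below 0. For the 7 members 6 of 9 lay above 0 in the Peyer's patch, against 44.6% of 9988, as did all 3 of Clock. Probe sets of 1 gene share their RNA and are not replicates. In the Peyer's patch the division was less clear. There 5 of 9 measured members lay above 0, against 42.5% of 12736 genes, and the ratios ran from −0.51 (Nfil3) to 0.26 (Nr1d2), with a median of 0.03 against −0.03 over all genes. No member was 1.5-fold apart, against 0.927% of genes at least 1.5-fold higher and 2.74% lower, and 0.149% and 0.573% at 2-fold. The 6 measured members of the higher set had a median of 0.09 and the other 3 one of −0.19. The latter was 0.08 with the mean over probe sets. Without less specific probe sets it was −0.35, but Cry1 has no probe set left there, so this is the median of Clock and Nfil3 only. By the brightest probe set, Dbp, Tef, Nr1d2, Per3, Clock and Nfil3 lay on the same side in both tissues, while Per1, Per2 and Cry1 did not and Nr1d1 had no ratio in the Peyer's patch, a contrast between the tissues that was not tested. With the mean over probe sets, Per2 (0.15), Per3 (−0.03) and Clock (0.08) changed side in the Peyer's patch.

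Of the clock network around the members, 29 further genes of 32 listed were analysed. By their brightest probe sets, the other activators stood with Clock in epithelial cells. Npas2, the CLOCK paralog, had 36.1 in colonized and 74.7 in GF epithelial cells (−1.05, 2.07-fold lower), although its second, dimmer probe set gave 0.07, and it lay under the floor in the Peyer's patch. Arntl had 106 in colonized and 206 in GF epithelial cells (−0.96) but 105 and 108 in the Peyer's patch (−0.04), and its second probe set, at 48.3 against 45.2 in epithelial cells, gave 0.10. Arntl2, a BMAL1 paralog, had −0.16 in epithelial cells and 0.33 in the Peyer's patch. So 4 of 4 core activators lay below 0 there by their brightest probe sets, where 52.4% of all genes lay above it. Clock was in the lower set already, so only Npas2, Arntl and Arntl2 add to that count. Of the 4, 1 was at least 2-fold lower, against 1.54% of all genes.

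Among E-box repressors, Cry2 had −0.38, Bhlhe40 −0.28 and Bhlhe41 −0.11 in epithelial cells, and Ciart, a further repressor of the loop, 0.21. With Per1, Per2 and Per3 above 0 and Cry1 below, 4 of 8 lay on each side, and 52.4% of all genes measured there lay above 0. Rora and Rorb, which activate where NR1D proteins repress, had −0.58 and −0.22 in epithelial cells. Rora had 9 probe sets, most of them under the floor in epithelial cells, and its signal of 15.2 in colonized epithelial cells was also under it, so −0.58 is a bound. The one Rora probe set above the floor on both epithelial arrays, with 23.4 in colonized and 21.7 in GF mice, gave 0.11. Hlf, the third D-box activator, had 60.5 in colonized and 42.3 in GF epithelial cells (0.52; 0.36 by its other probe set), beside Dbp and Tef. Of the 4 D-box factors only Nfil3 lay below 0 in either tissue.

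The kinases, ligases and partners that act on clock proteins showed no common side. In epithelial cells 4 of 9 measured lay above 0, with a median of −0.05, and in the Peyer's patch 3 of 9, with −0.10. Of all measured genes, 52.4% lay above 0 in epithelial cells and 42.5% in the Peyer's patch. The casein kinase gene Csnk1e had −0.59 by its brightest probe set but 1.12 and −0.02 by the others, so it gave no single direction. Tipin, a replication fork protein that partners Timeless, had 292 in colonized and 180 in GF epithelial cells (0.70) but 309 and 542 in the Peyer's patch (−0.81), and Timeless had 0.50 and −0.30.

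Among clock-controlled outputs, 3 of 8 measured lay above 0 in epithelial cells, against 52.4% of all measured genes. Lonrf3, a ring finger gene, had 29.4 in colonized and 89.0 in GF epithelial cells (−1.60, and −0.67 by its second probe set). Pdk4, which shuts pyruvate out of oxidation, had 443 and 823 (−0.89). Tspan4, a tetraspanin gene, had 49.8 and 27.0 (0.88). Usp2, a deubiquitinase gene that follows the E-box genes in many mouse tissues, had 338 and 259 (0.38; 0.52 by its second probe set), and Ces2a, a carboxylesterase gene, 668 and 455 (0.56). In the Peyer's patch the glucocorticoid-induced Tsc22d3 stood furthest, at 623 in colonized and 988 in GF mice (−0.67; −0.996 and −0.04 by other probe sets).

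**Figure D3:**
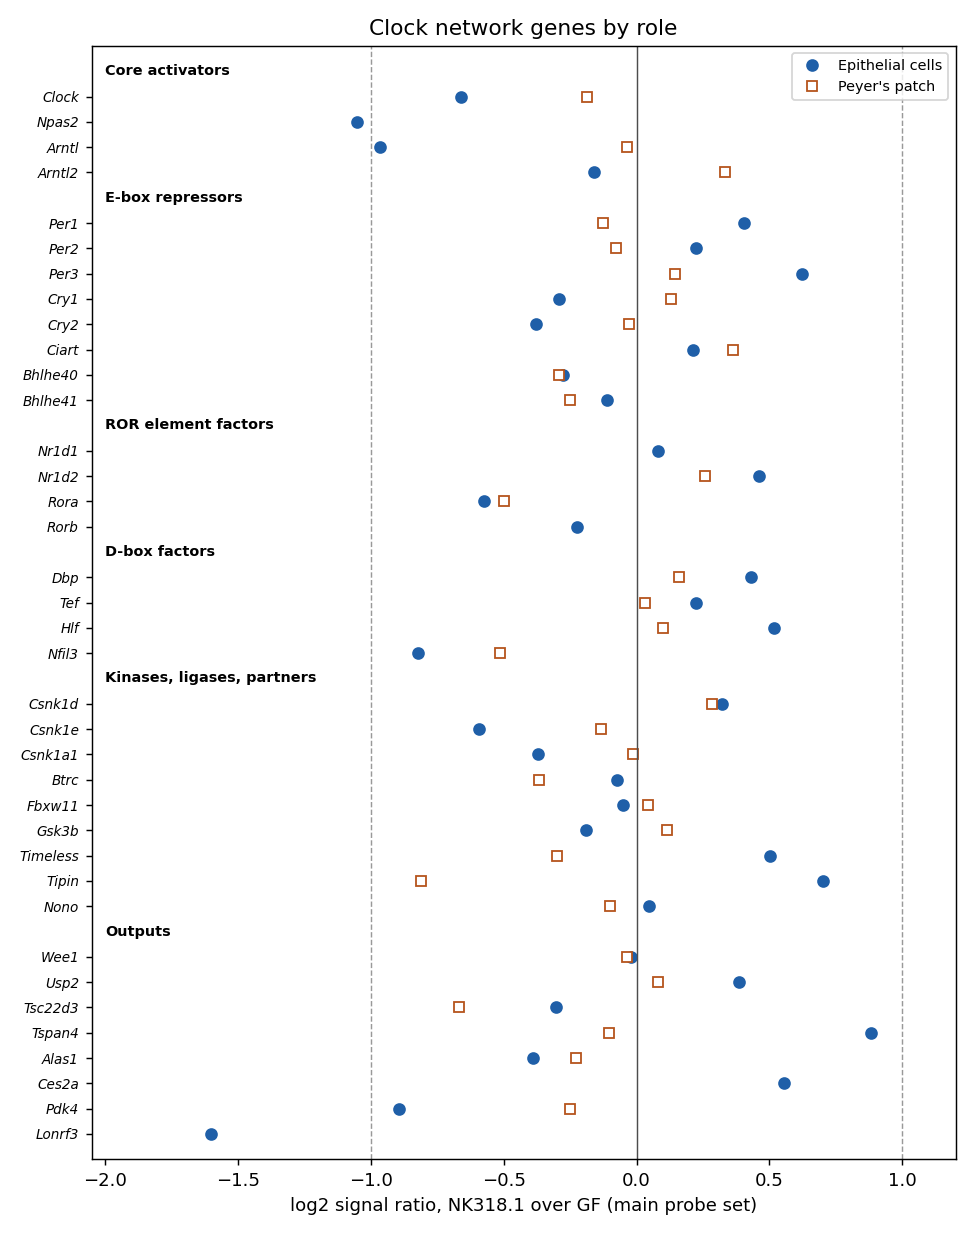
Log2 signal ratio, NK318.1 over GF, of the measured clock network genes by role, in epithelial cells (filled circles) and Peyer's patch (open squares), 1 probe set per gene. Dashed lines, 2-fold; 1 pooled array per group. All 4 core activators, Clock among them, lie below 0 in epithelial cells, and Dbp, Tef and Hlf above it.

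Inputs to the clock were described in the same arrays. Per1 can also be induced by glucocorticoids and cyclic AMP, and Per2 by heat. Of 11 glucocorticoid-induced genes, Per1 among them, 5 lay above 0 in epithelial cells, such as Fkbp5 (512 in colonized and 334 in GF mice, 0.62), and 6 lay below, such as Sgk1 (827 and 1299, −0.65) and Dusp1 (1140.4 and 1900.4, −0.74). In the Peyer's patch 4 lay above and 7 below, with Dusp1 at 408 and 1189.6 (−1.55). All 9 immediate early genes lay below 0 in epithelial cells, with a median of −0.87 (Egr1 2445 and 4807, −0.98), against 4 above and 5 below in the Peyer's patch. Of 7 heat shock genes, all lay above 0 in the Peyer's patch, with a median of 0.71, and 4 of 7 in epithelial cells, with 0.16. For comparison, 52.4% of all measured genes lay above 0 in epithelial cells and 42.5% in the Peyer's patch. Their medians were 0.02 and −0.03. By their brightest probe sets Per1 and Per2 had 0.41 and 0.22 in epithelial cells and −0.12 and −0.08 in the Peyer's patch. The other Per2 probe sets gave 0.24 and 0.30 in the Peyer's patch. The part of these inputs was not tested.

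Between the tissues, the members differed in where their signal lay. Ptprc had 23.1 in epithelial cells and 5235 in Peyer's patch of colonized mice, and 271 and 5152 in those of GF mice. The summed signal of 8 epithelial markers was 33272 in epithelial cells and 162 in Peyer's patch of colonized mice, and 39735 and 176 in those of GF mice. The colonized epithelial array thus carried the markers of its label, but beside them gastric and acinar markers at the summed signals given earlier. In colonized mice Per2 and Nfil3 were at least 2-fold higher in epithelial cells than in the Peyer's patch, at log2 ratios of 1.19 and 1.09, against 18.4% of 14030 genes. With the floor at the 60th percentile Per2 had 0.90. In GF mice Clock and Nfil3 were, at 1.24 and 1.40, against 16.0% of 14036 genes. With the mean over probe sets Clock had 0.94 and Per2 1.04, and Per2 had 1.08 with quantile normalization. Nr1d1 was at least 1.98-fold higher in epithelial cells of colonized and at least 1.87-fold in those of GF mice, since its Peyer's patch signals were under the floor. By the brightest probe sets, Nr1d2 was the member furthest to the Peyer's patch side, at −0.52 in colonized and −0.73 in GF mice. With the mean over probe sets it stayed so in colonized mice (−0.26), but in GF mice Dbp had −0.52 and Nr1d2 −0.36. By its brightest probe set Tef lay within 0.11 of 0 in both groups. Its other probe sets gave −0.90 and 0.38 in colonized and −1.13 and at least 0.15 in GF mice. Dbp lay at −0.04 and −0.31, and its other probe set at −0.23 and −0.72. Per1 had 0.30 in colonized and −0.23 in GF mice, Per3 0.84 and 0.37, and Cry1 0.17 and 0.60. Ratios this close to 0 depended on scaling, and with quantile normalization Dbp had 0.15 in colonized mice and Per1 0.04 and Tef 0.16 in GF mice. With the mean over probe sets Tef had −0.14 in colonized and −0.36 in GF mice.

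**Figure D4:**
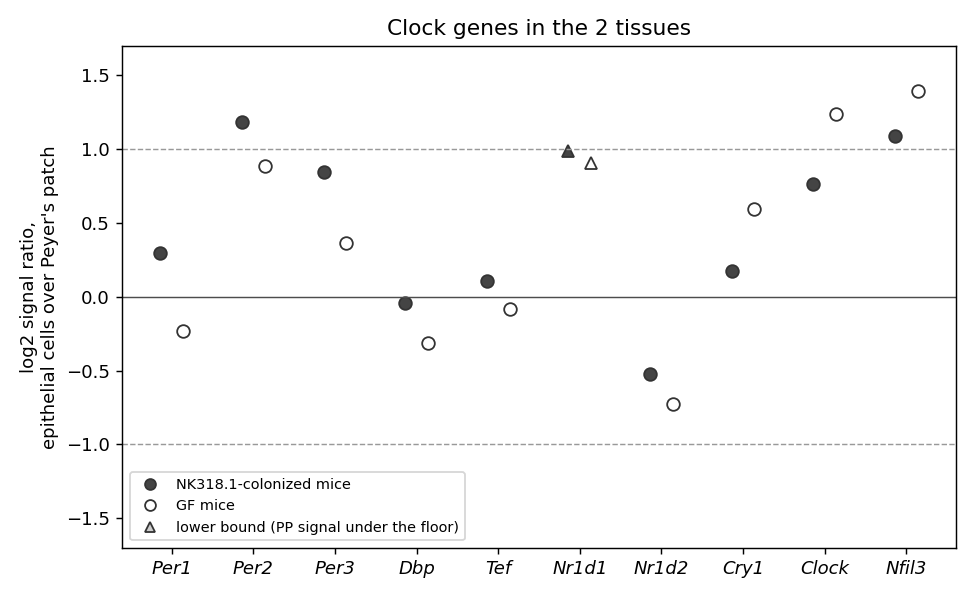
Log2 signal ratio, epithelial cells over Peyer's patch, of the 10 clock genes in NK318.1-colonized (filled) and GF mice (open). Triangles, lower bounds because the Peyer's patch signal lay under the floor; dashed lines, 2-fold. Nfil3 lies above 2-fold in both groups and Nr1d2 below 0 in both.

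The profiles of the 9 members above the floor on all arrays were set against their average. Centred on its own mean, each member lay at a Euclidean distance of 0.27 (Cry1) to 1.11 (Nfil3) from their average profile over the 4 arrays. Among the 11427 genes above the floor on every array, the nearest to that average were Cops3, Ola1, Tnn, Usp46os2 and Ttll6, at 0.02 to 0.04. Distances within other sets of 9 genes were not computed, so whether the members share a profile was not tested. The profiles hold the contrast between tissues as well as that between groups. With 4 arrays this is a description of shape only.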

How the data were processed

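Total RNA of pooled mice was hybridized to 4 Affymetrix 3′ expression arrays, 1 per tissue and group. The deposited values are linear signal intensities per probe set, made by the authors with MAS5, with version, settings and scaling target not stated in the sources used here. They were used without further scaling. Of 45037 probe sets beside 64 controls, 34945 name a single gene in the platform annotation and stand for 18193 genes. The brightest probe set of a gene over the 4 arrays (mean log2 signal) stood for it, and the other probe sets of the members are given too. The floor of 15.5 was set from the 40th percentile of each array, as their median, since no detection calls were used. Some listed network genes are not reported here. The adjusted p-value in the study's methods needs replicates, so its 2-fold limit was used alone. The 10 members, the lists and the floor were chosen with earlier results of these data known. Named outside the members were Arntl, network genes at least 1.5-fold apart in either tissue, the 5 nearest profiles, sex-linked genes and markers; the other network, glucocorticoid, immediate early and heat shock genes were named with their values known. The alternatives tried were median centring, quantile normalization, floors at the 25th and 60th percentile, no floor, the mean over probe sets, leaving out probe sets ending in s, x or a, and limits of 1.5-fold and 4-fold. The ratio and counting steps were tested on simulated data. Array number limits the precision. Python 3.11.15, numpy 2.4.6, pandas 2.3.3 and matplotlib 3.10.9 were used.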

Additional observations from a re-analysis of the deposited data

Results flagged for a closer look

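Tipin stood out because its sign differed between the tissues, with log2 ratios of colonized over GF mice of 0.70 in epithelial cells and −0.81 in the Peyer's patch, a gap of 1.51. It has a single probe set. This contrast was not tested.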

How the results depend on the processing

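No paired analysis was possible because every tissue and group was hybridized to 1 array, and for the same reason no array could be left out. At a limit of 1.5-fold, 1 member was higher and 2 were lower in epithelial cells, where the 2-fold limit gave 0 of each. The other counts of members 2-fold apart stayed at 0. In epithelial cells all 68 alternative values of the 10 log2 ratios kept their sign, and none moved by over 1.5-fold. Many alternatives could not differ from the main value. Floors leave bright genes unchanged, and the mean over probe sets leaves genes with a single probe set unchanged. Nr1d1 had no value with the higher floor, and Cry1 none without less specific probe sets. In the Peyer's patch 57 of 60 values kept their sign, and with the mean over probe sets Per2 had 0.15, Per3 −0.03 and Clock 0.08. That setting also gave medians of 0.29 for the 7 members and −0.29 for Cry1, Clock and Nfil3 in epithelial cells. The median of all measured members in the Peyer's patch, 0.03, was −0.02 with the lower floor, without a floor or without less specific probe sets. The last of these settings leaves out Cry1. Of 135 alternative tissue ratios, 131 kept their sign, and 7 crossed 2-fold, which were 1 of Per2 and 3 of Nr1d1 in colonized mice and 2 of Per2 and 1 of Clock in GF mice. The 3 of Nr1d1 ran from 1.01 to 1.11. Members with signals within 2-fold of the floor, such as Per3 in the Peyer's patch and Nr1d1 in epithelial cells, are close to background.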
